A study of Canis lupus familiaris with 33 samples.

Results

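T-cell-rich and T-cell-poor tumours were the 7 highest and the 7 lowest of 23 arrays of canine diffuse large B-cell lymphoma (DLBCL, a tumour of mature B cells) when these were ranked by a T-cell index. The series held 33 arrays in all. The index was the mean log2 level of CD28, LCK, CD5, TRAT1 and LEF1, each read from its probeset of highest mean over the 33 arrays. The groups were therefore chosen by measured levels of RNA, and the 8 probesets of these 5 genes were left out of the counts and comparisons that follow. These 8 did stay in the adjustment of p-values, so calls near the threshold may not pass without them. All samples were pieces of whole lymph node. The tumours came from owned dogs of various breeds, and the labels name no engineered allele in any group. The T-cell-rich tumours were samples 23, 5, 19, 21 and 25 of treatment naïve dogs and samples 12 and 3 of dogs that had relapsed, 152 and 82 days after the last treatment. Sample 3 came after CHOP chemotherapy and sample 12 after Dox/Cytoxan/Pred. The T-cell-poor tumours were samples 15, 16, 6, 20, 1 and 8 of treatment naïve dogs and sample 24 of a dog that had relapsed, 13 days after the last treatment with CHOP. The dogs were 5.4 to 13.3 years old in the T-cell-rich and 2.7 to 12.0 years old in the T-cell-poor group. The labels name tramadol for sample 3 and rimadyl for samples 8 and 16. The 9 tumours of middle rank, and 10 arrays of healthy nodes, taken from 7 dogs put down for conditions other than lymphoma (4 arrays from 1 dog), are given beside both groups as a description. Of the middle tumours 5 were treatment naïve and 4 had relapsed, with 672, 32, 123 and 76 days since the last treatment in samples 4, 9, 13 and 18, and their dogs were 4.7 to 10.8 years old. Ages, sexes and breeds of the healthy dogs are not given in the labels. Each of the 14 tumours came from a different dog, whereas the middle sample 11 came from the dog of sample 12.

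T cells recognise antigen through a receptor built of an alpha and a beta chain, each with a variable and a constant part, which signals through the CD3 chains and the kinase LCK. CD28, ICOS, CD27 and CTLA4 are surface proteins that strengthen or restrain this signal. A lymph node replaced by DLBCL keeps a variable number of T cells and macrophages among the malignant B cells, and a biopsy measures the RNA of all of them together. Fewer cells of a type and less RNA per cell cannot be told apart in such samples.

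The groups were not balanced for the sex of the dogs. Of the T-cell-rich tumours 6 of 7, and of the T-cell-poor tumours 2 of 7, came from female dogs (Fisher's exact test, two-sided p = 0.103), against 1 of the 9 middle tumours. The labels give every female as F/S (spayed) and the males as M/N (neutered), apart from sample 6 and the middle sample 14, given as M. RNA integrity numbers (RIN) were 9.66 ± 0.25 (SD, n = 7) and 9.79 ± 0.17 (SD, n = 7), a difference within the spread of the samples (exact permutation test, two-sided p = 0.339). Age was 9.5 ± 3.11 years (SD, n = 7) against 7.6 ± 2.97 years (SD, n = 7), with p = 0.265 in the same exact test. Relapsed dogs made up 2 of 7 and 1 of 7 tumours (Fisher's exact test, p = 1). The day of the array, read from array names in a supplement of the study, could be settled for 11 of the 14 tumours, and each of the 3 days held tumours of both groups. Between any pair of the 14 arrays the correlation over all probesets was 0.942 to 0.986. The 17 tag control probesets, designed against no dog transcript, had a median level of 3.53 and reached 4.56, so that log2 values near 4 lie close to background. The RIN of the healthy nodes was 5.8 to 9.4. Sample 5, a T-cell-rich tumour, stood apart in markers of B cells, the cell type its label names. MS4A1, which encodes CD20, was at 8.51 there against 11.65 to 12.65 in healthy dogs, and CD79A at 10.88 against 11.55 to 12.74. The mean of 17 B-cell genes was 8.25 against 9.64 to 10.30. PAX5, at 6.14, was within the healthy range of 5.72 to 6.23. Its probeset varied little, at 5.66 to 6.27 in the T-cell-rich and 5.93 to 6.35 in the T-cell-poor tumours. The PAX5 level therefore cannot show whether sample 5 had kept or lost B cells. Several results are also given without this tumour, though not every one that moved.

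In the T-cell-rich tumours the index ran from 7.61 in sample 3 to 8.90 in sample 23, and in the T-cell-poor tumours from 5.84 in sample 8 to 6.37 in sample 15. The members just inside the limits, sample 3 and sample 15, stood beside sample 14 at 7.39 and sample 18 at 6.58 just outside them. The tumours formed a gradual series with no gap at either limit. All 10 healthy arrays, at 9.32 to 11.18, lay above the highest tumour.

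**Figure D1:**
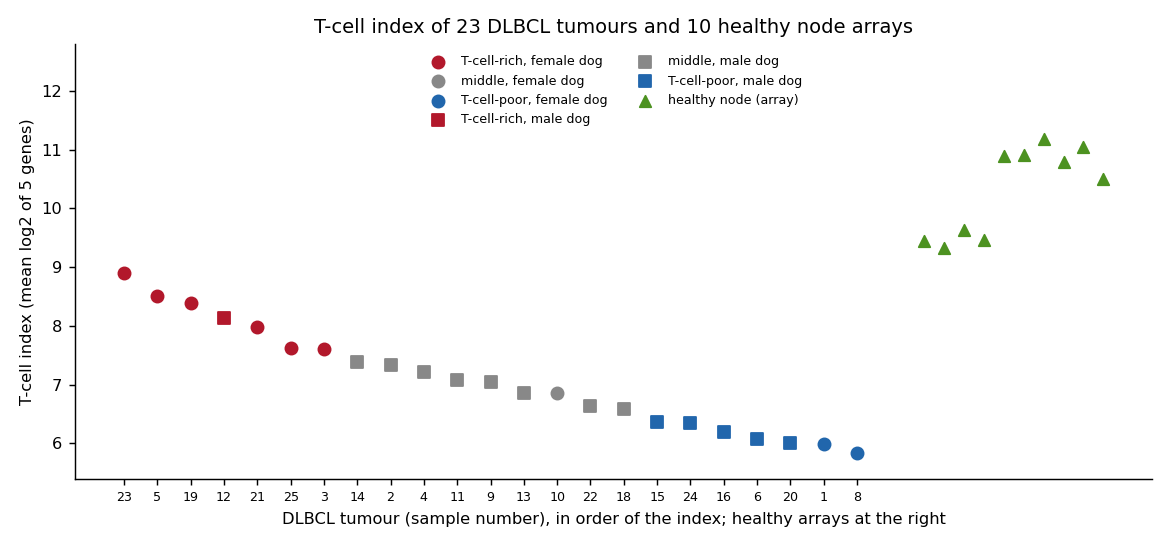
T-cell index (mean log2 level of CD28, LCK, CD5, TRAT1 and LEF1) of each DLBCL tumour in order of rank, with healthy node arrays at the right. Colours mark the 7 T-cell-rich, 9 middle and 7 T-cell-poor tumours, circles female and squares male dogs. Healthy arrays start at 9.32, above the highest tumour at 8.90.

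The 5 index genes did not contribute alike. TRAT1, an adaptor that stabilises the receptor complex, had the widest range, with 6.95, 8.27 and 9.57 as lowest, median and highest level in the T-cell-rich tumours and 4.02, 5.01 and 6.34 in the T-cell-poor tumours. The co-stimulatory receptor CD28 was at 7.39, 8.03 and 8.92 against 4.94, 5.62 and 6.77, and CD5, a receptor that tunes antigen signals, at 7.81, 8.49 and 9.03 against 6.20, 6.82 and 7.23. The groups overlapped in the other two index genes. LCK, the kinase next to the receptor, spanned 8.66 to 10.11 and 7.24 to 9.49, and LEF1, a transcription factor of naive and developing T cells, 4.92 to 8.74 and 4.25 to 5.20. The highest LEF1 level belonged to sample 5, which had the lowest TRAT1 level of its group. As these levels made the ranking, they are a description and were given no test.

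Over the other 43027 probesets, 50 were higher in the T-cell-rich tumours at an adjusted p under 0.05 (limma with Benjamini-Hochberg adjustment), which is 0.116% of those tested, and 2 were lower, which is 0.00465%. A linear fold over 2 was reached by 41 of the 50 and by 0 of the 2. Without adjustment, 2062 probesets were higher and 2045 lower at p under 0.05. In 46 of the 50 the groups did not overlap, which passing the test itself favours. Without sample 5 the counts were 67 higher and 1 lower. Healthy nodes had a mean above that of the T-cell-rich tumours for 48 of the 50. The same share over all probesets was not counted, so this describes only the probesets called. A single gene symbol was given for 29 of the 50, standing for 22 genes. With 1 probeset per gene, that of highest mean, 19 of 15110 genes were higher (0.126%) and 0 were lower (0%) by limma. At this level 301 genes (1.99%) were over 2-fold higher and 63 (0.417%) over 2-fold lower, whatever their p, while 46 genes (0.304%) lay without overlap above and 15 (0.0993%) below the T-cell-poor tumours. The median log2 difference over all genes was -0.03, and 42.6% of all genes had a difference above 0.

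The number of calls depended on whether sex was in the fit. With sex as a term in the fit, a choice made after the imbalance had been seen, 2 probesets were higher and 0 lower. Both are without a single symbol in the annotation and had log2 differences of 2.49 and 2.77 (adjusted p = 0.018 each). Their differences without that term were 2.51 and 2.70. All 50 probesets kept a difference above 0 in that fit. For the 19 called genes the log2 differences were 0.79 to 3.46 without and 0.72 to 3.32 with sex in the fit, and 0 of the 19 passed. Among the female dogs the T-cell-rich tumours lay above the T-cell-poor tumours without overlap in 19 of the 19 genes, with mean differences of 0.70 to 3.39, and the only male T-cell-rich tumour lay above all male T-cell-poor tumours in 19 of 19, by 0.74 to 3.19 over their mean. As 18 of these genes did not overlap over all 14 tumours, their separation within each sex follows from that. Among female dogs alone (6 against 2), 0 probesets were higher and 1 lower by limma, with 898 and 1141 at an unadjusted p under 0.05. Whether the sex of the dogs had a part in the differences was not tested.

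Most of the 19 called genes belong to T cells, and those of the receptor itself come first here. They share their cell type with the index, so that their levels are a description of what the ranking selected and support nothing further. LOC609053 and LOC480788 are listed by RefSeq (UU_Cfam_GSD_1.0) as constant-region genes between EPHB6 and PRSS2, where the beta chain is encoded. LOC480788 had 11.38, 12.07 and 12.71 as lowest, median and highest level in the T-cell-rich tumours and 8.26, 9.64 and 10.50 in the T-cell-poor tumours, a log2 difference of 2.57 ± 0.30 (SE). LOC609053 differed by 2.94 ± 0.39 (SE), at 8.53 to 9.91 against 4.78 to 7.77. All 7 T-cell-rich tumours stood above every T-cell-poor tumour in both genes. LOC607937 and the variable segment LOC607750 lie next to DAD1 at the locus of the alpha and delta chains. LOC607937 differed by 2.31 ± 0.29 (SE), with 10.88 to 11.74 against 7.99 to 10.05. LOC607750 differed by 0.86 ± 0.15 (SE), and here the lowest T-cell-rich tumour, sample 25 at 6.89, lay just below samples 24 and 20 of the T-cell-poor group. Genes of these loci are near-identical in part, so that probes of one may also have caught its relatives.

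CTLA4, the inhibitory partner of CD28, had the largest difference of all genes that passed the test. Its level was 8.02, 9.42 and 10.88 in the T-cell-rich and 5.36, 6.32 and 7.20 in the T-cell-poor tumours, a difference of 3.46 ± 0.41 (SE) on the log2 scale. Its lowest T-cell-rich member was sample 3, the last of the ranking to be included. CD27, a co-stimulatory receptor shared with memory B cells, stood at 8.98 to 10.35 against 5.76 to 8.51. ICOS, the co-stimulator of follicular helper cells, was dim in both groups, at 5.86 to 7.08 against 4.90 to 5.78, and passed the test in 2 of the 14 fits that left out a tumour. CTLA4 passed in all 14 of them. Of the 24 measured genes of co-stimulation and inhibition 3 were called, with a median log2 difference of 0.34 over the list. Signalling genes around the receptor were also among the calls: LAT, the scaffold phosphorylated after antigen contact, differed by 1.60, CD7 by 1.13 and UBASH3A, which damps receptor signals, by 1.03. Together with CD3E and CD8B these were the 5 calls among 30 measured genes of the receptor and its signalling, a list with a median difference of 0.64 and with 0 genes over 2-fold lower.

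Several classical T-cell markers outside the index did not follow it. CD3E, the epsilon chain of CD3, was at 10.38, 11.25 and 12.14 in the T-cell-rich and at 7.86, 9.17 and 9.83 in the T-cell-poor tumours, without overlap. CD3D, the delta chain of the same complex, was at 11.47, 13.63 and 13.92 against 13.17, 13.79 and 14.04, a difference of -0.47 ± 0.33 (SE). CD3G, the gamma chain, was at 9.16, 11.55 and 12.20 against 6.25, 11.96 and 12.55. The lowest T-cell-rich value of all 3 chains belonged to sample 25, and in CD3G the T-cell-poor sample 20 stood alone at 6.25, with the others of its group at 11.32 or more. CD3D stood between 13.66 and 14.12 in healthy dogs, with a mean of 13.97, and CD3G between 11.19 and 12.23. In both genes most T-cell-poor tumours were thus about as high as healthy nodes. CD2, an adhesion receptor of T and natural killer cells, differed by 0.39 ± 0.18 (SE) with overlap, CD6 by 0.67 ± 0.18 (SE) and CD4, the co-receptor of helper cells, by 0.17 ± 0.18 (SE). The chains of CD8, the co-receptor of cytotoxic cells, differed from each other. CD8B was at 8.02 to 9.72 against 6.17 to 7.30, without overlap, whereas CD8A was at 5.63 to 7.69 against 5.26 to 5.89. In CD8A 4 of 7 T-cell-rich tumours lay above every T-cell-poor tumour, sample 21 being the highest. Of these 4, sample 25 was practically level with the T-cell-poor sample 1, both at 5.89. The CD8A probeset was also the dimmer in healthy dogs, at 6.17 to 7.73 against 9.62 to 11.39 for CD8B.

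**Figure D2:**
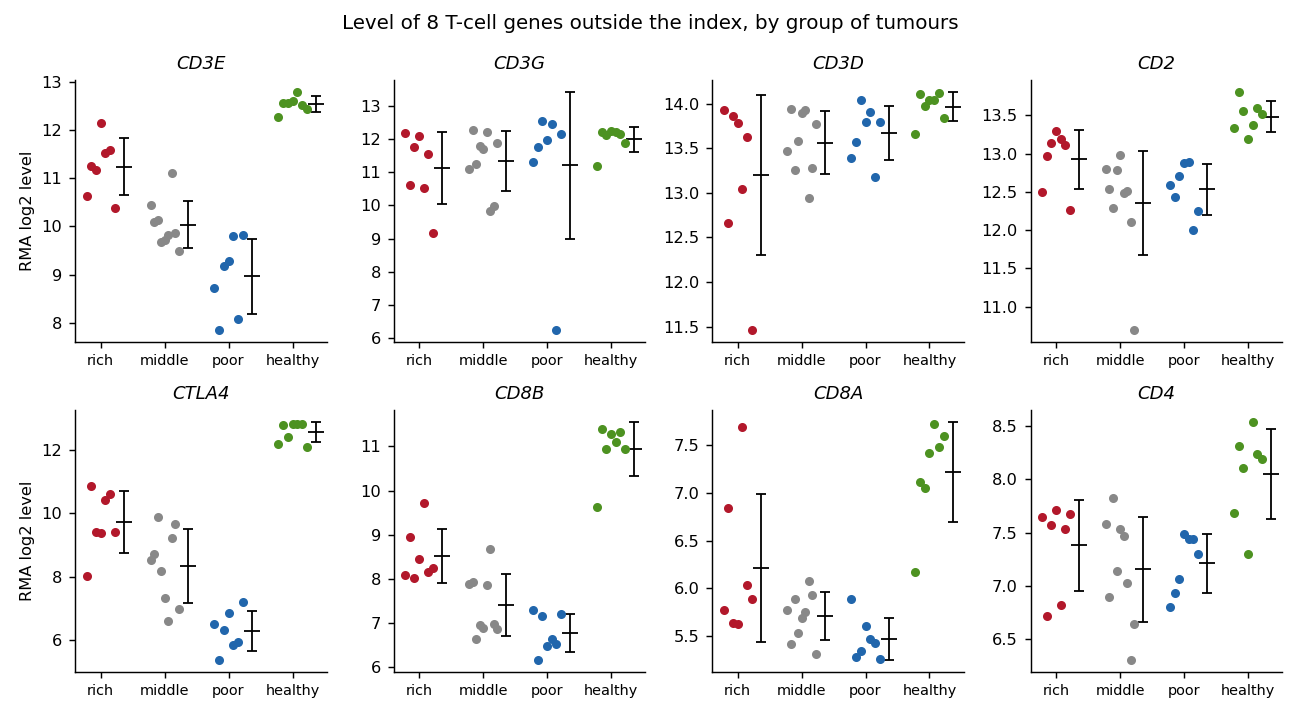
RMA log2 level of 8 T-cell genes outside the index. Points are 7 T-cell-rich, 9 middle and 7 T-cell-poor tumours and 7 healthy dogs, and black bars are the mean and SD. CD3E, CTLA4 and CD8B separate both tumour groups without overlap, while CD3G, CD3D, CD2, CD8A and CD4 overlap.

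The mean of 9 measured T-cell markers other than the index genes was 8.74 to 9.72 in the T-cell-rich and 7.90 to 9.01 in the T-cell-poor tumours. Sample 25, at 8.74, was below samples 24, 16, 8 and 15 of the T-cell-poor group. A ranking by these markers kept 6 of the 7 T-cell-rich and 4 of the 7 T-cell-poor tumours, and it moved sample 25 to the other end. The markers include CD3D and CD3G, whose medians were not higher in the T-cell-rich tumours. Sample 25 was the lowest of its group in both, at 11.47 and 9.16. How far these genes shaped the ranking was not tested. Only 1 probeset was then called by limma, an unnamed one with a difference of 1.02 (adjusted p = 0.0246), with 1013 probesets higher and 1278 lower at an unadjusted p under 0.05. The names T-cell-rich and T-cell-poor therefore stand for the ends of the index of 5 genes.

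Transcription factors and cytokines of T cells were less uniform. TOX, a factor of developing, follicular and exhausted T cells, was at 8.85, 9.65 and 12.21 against 6.31, 7.28 and 8.23. The groups did not overlap, but the difference of 2.81 ± 0.53 (SE) missed the threshold (adjusted p = 0.0667). The same held for IKZF2, at 7.31 to 11.39 against 6.49 to 7.22 (adjusted p = 0.211). TCF7, the partner of LEF1, differed by 0.89 and FOXP3, the factor of regulatory T cells, by 0.40, with 5.74 to 6.58 against 5.43 to 6.13. None of 17 measured transcription factors passed the test, and their median difference was 0.03, or 0.11 with sex in the fit. The mean of this list was nevertheless at 7.58 to 8.22 in the T-cell-rich and 7.39 to 7.53 in the T-cell-poor tumours, without overlap. Of 25 genes of helper cytokines and their receptors 1 passed, IL18, and the median was 0.27. IL21, a product of follicular helper cells, was near background in most T-cell-poor tumours, at 3.75 to 4.50, and reached 3.91 to 8.01 in the T-cell-rich tumours (adjusted p = 0.386). Of the common gamma chain family none of 14 genes passed. IL2RB differed by 1.14 (adjusted p = 0.117) and IL15 by 0.87 (adjusted p = 0.101), while the shared chain IL2RG differed by -0.37. Of 13 genes of naive lymphocyte trafficking none passed, and 6 had a difference above 0, a share near the 42.6% of all genes.

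The 7 other called genes are not specific parts of the T-cell receptor machinery. IL18, a cytokine released by macrophages after inflammasome cleavage, had the smallest rise of them and the smallest SE. Its level was 12.18, 12.30 and 12.69 in the T-cell-rich and 11.39, 11.60 and 11.69 in the T-cell-poor tumours, a log2 difference of 0.79 ± 0.09 (SE, adjusted p = 0.00262). A second probeset of IL18 gave 0.74 (adjusted p = 0.00645). Middle tumours had a mean of 11.78 and healthy dogs of 12.50. CSF1R, the receptor through which macrophages receive their growth factor, was at 8.57, 9.11 and 9.53 against 7.78, 8.13 and 8.28, a rise of 0.91 ± 0.15 (SE, adjusted p = 0.0221). CSF2RA, the alpha chain of the GM-CSF receptor of myeloid cells, was at 7.31, 7.68 and 8.40 against 6.32, 6.68 and 7.27, a rise of 1.04 ± 0.16 (SE, adjusted p = 0.0188). In these 3 genes each T-cell-rich tumour lay above every T-cell-poor tumour.

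GLIPR1, a protein of the CAP family made by myeloid and other cells, rose by 1.39 ± 0.15 (SE, adjusted p = 0.00262), from 9.71, 9.97 and 10.55 in the T-cell-poor to 11.18, 11.48 and 11.95 in the T-cell-rich tumours. The groups did not overlap. TMEM51, a transmembrane protein, was at 9.74 to 10.80 against 8.29 to 9.51, a rise of 1.17 ± 0.19 (SE, adjusted p = 0.0237). ABCB1 encodes P-glycoprotein, the efflux pump for doxorubicin and vincristine. Its level was 6.96, 7.44 and 7.82 against 5.07, 5.96 and 6.66, a rise of 1.53 ± 0.24 (SE, adjusted p = 0.0156), and the healthy dogs had a mean of 9.64, far above both groups. PRKCH, a protein kinase C of lymphocytes and epithelia, was at 6.99, 7.53 and 8.57 against 5.48, 6.21 and 6.99, and the lowest T-cell-rich tumour, sample 3, was only just above the highest T-cell-poor tumour, sample 24. Its rise of 1.39 ± 0.25 (SE) was close to the threshold (adjusted p = 0.047).

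**Figure D3:**
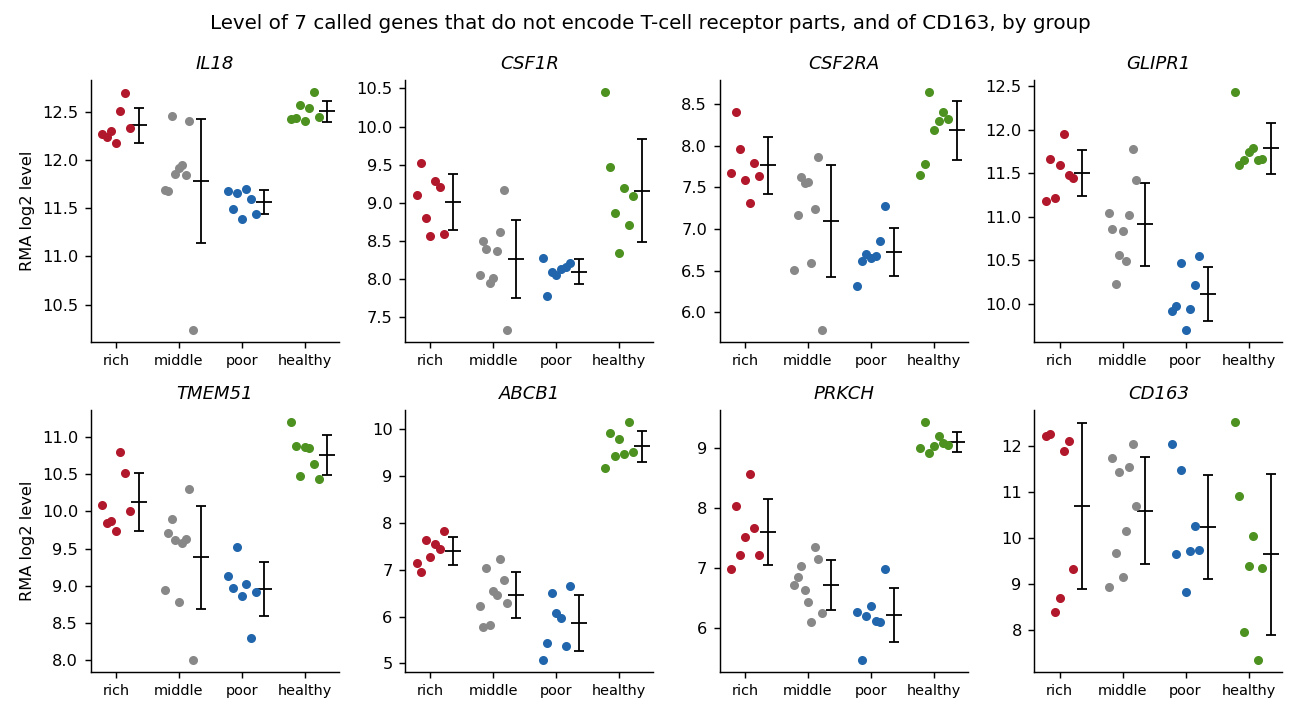
RMA log2 level of the 7 called genes outside the T-cell receptor machinery and of the macrophage receptor CD163. Points are 7 T-cell-rich, 9 middle and 7 T-cell-poor tumours and 7 healthy dogs, and black bars are the mean and SD. The 7 called genes separate both ends of the ranking, with middle tumours spread over both, while CD163 spans 8.39 to 12.26 and 8.84 to 12.05.

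These genes differed in how far they rested on single tumours. IL18 and GLIPR1 passed in all 14 fits that left out a tumour, ABCB1 in 13, CSF2RA in 11, TMEM51 and CSF1R in 7 each and PRKCH in 2. Over these fits the adjusted p reached 0.0104 for IL18, 0.00941 for GLIPR1, 0.0514 for ABCB1, 0.0588 for CSF2RA, 0.0767 for TMEM51, 0.0765 for CSF1R and 0.132 for PRKCH. With sex in the fit none of the 7 passed. The differences were then 0.72 for IL18 (adjusted p = 0.0608), 1.28 for GLIPR1 (0.0586), 1.20 for CSF2RA (0.069), 1.63 for ABCB1 (0.118), 0.82 for CSF1R (0.343), 0.92 for TMEM51 (0.417) and 1.28 for PRKCH (0.477). Among female dogs the means of the 6 T-cell-rich and 2 T-cell-poor tumours differed by 0.70 in IL18, 1.36 in GLIPR1 and 0.86 in CSF1R. Among male dogs the only T-cell-rich tumour, sample 12, lay above the mean of the 5 T-cell-poor tumours by 0.77, 1.14 and 0.74 in the same genes. A few further genes were called only in a probeset other than that of highest mean and were named after their values had been seen. They were SH2D1A, an adaptor of T and natural killer cells, at 1.67, the cytosolic phospholipase PLA2G4A at 0.90 and the hyaluronidase HYAL2 at 0.61.

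On the lower side were 1 probeset of CCDC150, a coiled-coil protein, and 1 unnamed probeset. CCDC150 had a mean of 8.40 in the T-cell-rich and 9.11 in the T-cell-poor tumours there, a log2 difference of -0.71 (adjusted p = 0.034). Its brighter probeset gave -0.51 and did not pass (adjusted p = 0.132). The unnamed probeset differed by -0.66 (adjusted p = 0.0291). In both the groups did not overlap.

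Gene lists of cell types and pathways are described here by the number of measured genes that passed and by their median log2 difference, beside the median of -0.03 and the 1.99% of all genes that were over 2-fold higher. The largest medians belonged to natural killer and cytotoxic cells, macrophages and monocytes, and inflammatory chemokines. With sex in the fit, however, inflammatory chemokines, at 0.78, stood above natural killer cells, at 0.64, and macrophages, at 0.49. Among female dogs alone natural killer cells were at 1.75, inflammatory chemokines at 0.87 and macrophages at 0.49.

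**Figure D4:**
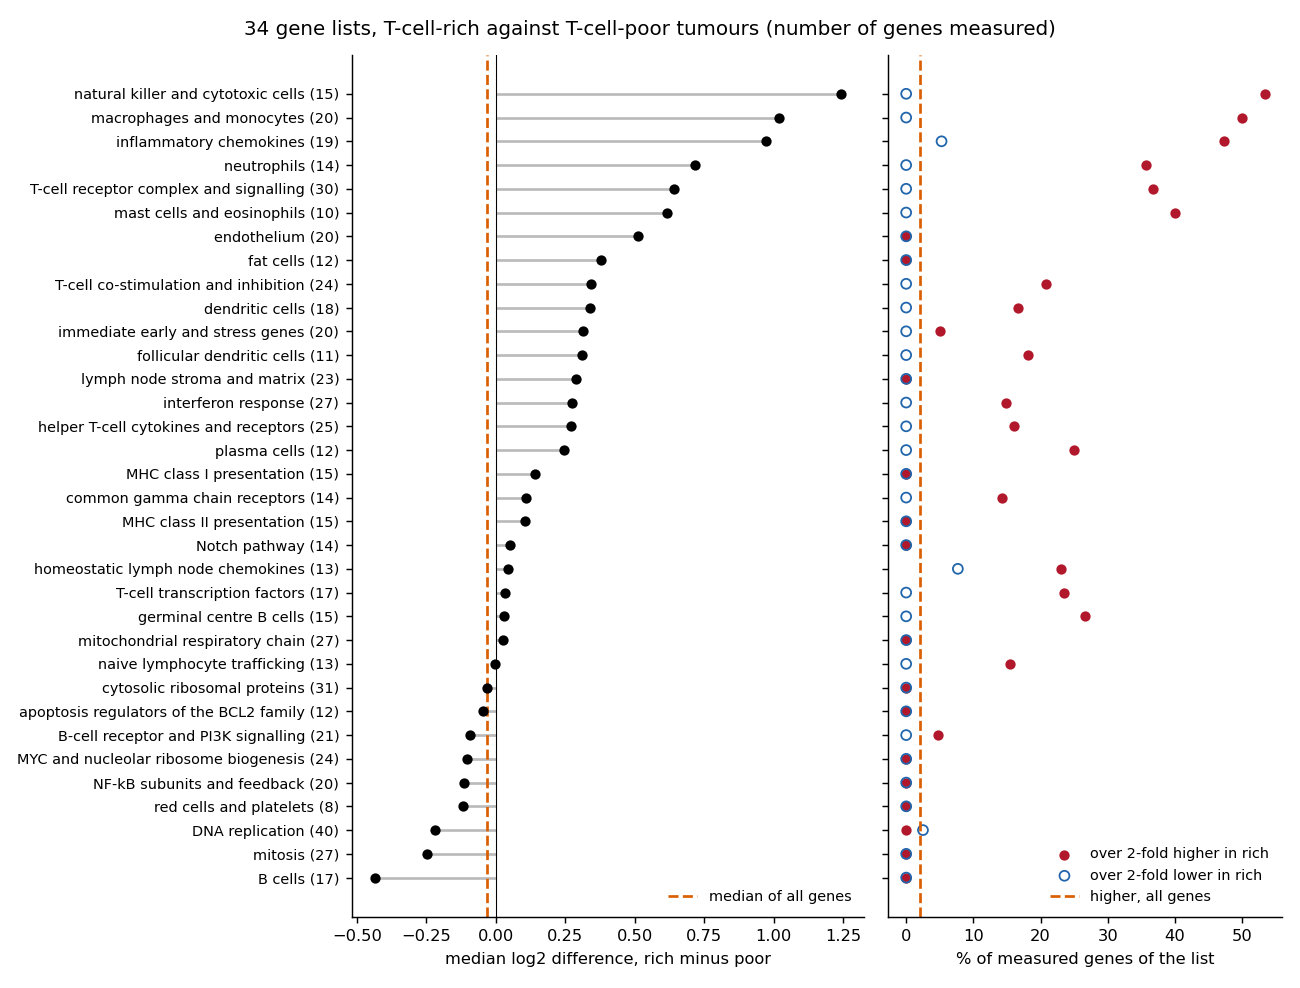
Left, median log2 difference (T-cell-rich minus T-cell-poor) of each of 34 gene lists, with the number of measured genes in brackets and the median of all genes as a dashed line. Right, the share of each list over 2-fold higher (filled) or lower (open), with 1.99% over 2-fold higher among all genes as a dashed line. Natural killer cells stand highest at 1.24 and B cells lowest at -0.43, an order that held at neither end with sex in the fit (0.64 and -0.33) and not at the lower end without sample 5 (-0.10 for B cells).

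Of 20 measured genes of macrophages and monocytes 1, CSF1R, passed, 10 were over 2-fold higher and 19 had a difference above 0, with a median of 1.02. CD5L, a protein secreted by tissue macrophages, was at 10.96, 11.87 and 13.53 against 8.74, 9.34 and 12.11 (difference 2.29 ± 0.51 SE, adjusted p = 0.144). The complement subunit C1QB was at 11.48, 12.18 and 13.37 against 9.38, 10.86 and 12.27 (1.39 ± 0.40 SE, adjusted p = 0.276), and C1QC differed by 1.15. CD14, the receptor for bacterial lipopolysaccharide, differed by 0.92 (adjusted p = 0.352) and CD163, the haemoglobin scavenger receptor, by 0.45 (adjusted p = 0.883). The mean level of the list was 9.37, 10.25 and 11.22 in the T-cell-rich and 8.67, 9.10 and 10.32 in the T-cell-poor tumours, so that 3 of 7 T-cell-rich tumours stood above all T-cell-poor tumours. The highest T-cell-poor tumour was sample 1, of a female dog. Without sample 5 the median of the list was 0.83, and with sex in the fit it was 0.49.

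The list of natural killer and cytotoxic cells had a median of 1.24, with 8 of 15 measured genes over 2-fold higher and 0 that passed the test. Granzyme K (GZMK), a protease of cytotoxic granules, was at 9.51, 11.10 and 13.19 against 7.13, 9.37 and 11.13 (adjusted p = 0.276). CST7, an inhibitor of granule proteases, was at 6.25 to 9.26 against 5.20 to 6.54, and CTSW, a protease of cytotoxic lymphocytes, at 8.12 to 10.27 against 6.99 to 9.30. The receptor CD160 differed by 0.91. FASLG, the ligand of the death receptor FAS, was the only gene of the list with a difference below 0 and is named for that, at 6.94 to 7.77 against 7.36 to 8.89, a difference of -0.73. The mean of the list was lowest in sample 12 among the T-cell-rich tumours, at 6.98, within the range of the T-cell-poor tumours, and highest in sample 5 at 9.48. Its median was 1.12 without sample 5, 0.64 with sex in the fit and 1.75 among female dogs alone.

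Inflammatory chemokines and their receptors had a median of 0.97, with 9 of 19 genes over 2-fold higher and 0 that passed. CXCL8, which attracts neutrophils, was at 6.56, 6.94 and 11.73 against 3.97, 5.01 and 5.71, near background in part of the T-cell-poor tumours, and separated the groups without overlap (2.88 ± 0.67 SE, adjusted p = 0.17). CXCL10, an interferon-induced attractant of T cells, was at 10.01, 12.05 and 13.24 against 8.70, 9.69 and 11.35 (2.00 ± 0.54 SE, adjusted p = 0.225). CXCL16 and its receptor CXCR6 differed by 0.84 and 1.25. CCR2, the receptor for monocyte chemokines, had a difference below 0, at 5.86, 6.80 and 7.35 against 6.75, 8.05 and 8.48 (-1.16 ± 0.28 SE, adjusted p = 0.189). Of the homeostatic chemokines that hold lymphocytes in the node, CCL21 was at 9.68 to 13.94 against 9.11 to 12.68 and CCL19 at 11.32 to 14.22 against 10.11 to 12.90. None of the 13 genes of that list passed. Its median was 0.04, or 0.19 without sample 5 and 0.20 with sex in the fit. The mean of the list was lowest in sample 5, at 8.02, while 5 of 7 T-cell-rich tumours lay above every T-cell-poor tumour.

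B-cell genes, which stand for the malignant cells and the remaining normal B cells, had a median of -0.43, and 1 of 17 genes had a difference above 0. None passed. This was the lowest median of the 34 lists over all 14 tumours, but without sample 5 it was -0.10 against -0.27 for mitosis, and with sex in the fit -0.33 against -0.64. MS4A1 was at 8.51, 13.10 and 13.19 in the T-cell-rich and 12.93, 13.51 and 13.78 in the T-cell-poor tumours (adjusted p = 0.671). CD79A of the B-cell receptor was at 10.88, 13.04 and 13.24 against 12.91, 13.16 and 13.32. In both genes the lowest value was that of sample 5, and without that tumour the differences were -0.27 for MS4A1 and -0.07 for CD79A. PAX5, the factor that fixes B-cell identity, was at 5.66 to 6.27 against 5.93 to 6.35.

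**Figure D5:**
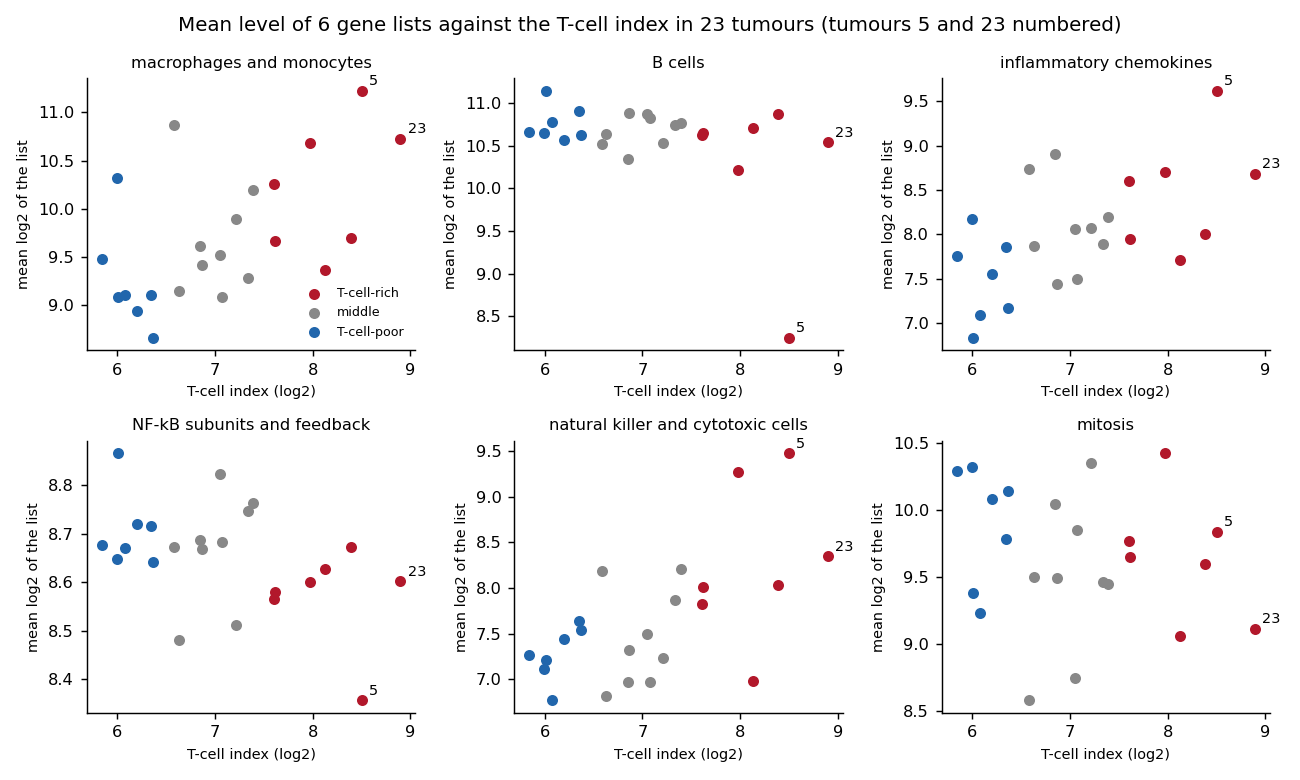
Mean log2 level of 6 gene lists (vertical) against the T-cell index (horizontal) in 23 tumours, coloured by group, with tumours 5 and 23 numbered. Sample 5 lies apart at 8.25 for B cells and at 8.36 for NF-kB subunits and has the highest mean of macrophage genes, at 11.22.

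Germinal centre genes had a median of 0.03, or 0.11 with sex in the fit, with 0 of 15 called, but 4 were over 2-fold higher. The mean of the list was at 8.18 to 8.88 in the T-cell-rich and 7.85 to 8.16 in the T-cell-poor tumours, without overlap. BCL6, the master factor of the germinal centre, was at 10.45 to 12.56 against 8.44 to 10.79 (1.20 ± 0.38 SE, adjusted p = 0.313), and MME, which encodes CD10, at 8.24 to 10.32 against 6.32 to 9.32 (1.52 ± 0.42 SE, adjusted p = 0.246). Plasma cell genes had a median of 0.24 with 0 of 12 called. The joining chain of secreted antibodies (JCHAIN) was at 11.83 to 14.09 against 8.78 to 13.44, and PRDM1, which drives plasma cell formation, at 6.18 to 10.09 against 5.91 to 6.92.

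Proliferation genes had medians slightly below 0. The median was -0.25 over 27 genes of mitosis, of which 2 had a difference above 0, and -0.22 over 40 genes of DNA replication, of which 3 did. None of either list passed. Thymidine kinase (TK1) was at 6.16 to 6.85 against 6.63 to 7.15 (-0.45 ± 0.12 SE, adjusted p = 0.221) and the mitotic motor KIF4A at 8.25 to 9.27 against 8.61 to 9.52. With sex in the fit the median of mitosis was -0.64 and that of DNA replication -0.32. Ribosome biogenesis genes had a median of -0.10, or -0.03 without sample 5, and 31 cytosolic ribosomal proteins -0.03.

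None of 20 genes of NF-κB subunits and feedback, the pathway at the centre of the study, passed. The median was -0.12, or -0.06 with sex in the fit, with 5 of the 20 above 0. NFKB2, the subunit of the alternative pathway, was at 9.51, 10.69 and 10.98 against 10.71, 11.25 and 11.63 (-0.69 ± 0.22 SE, adjusted p = 0.309), and BCL10, which links antigen receptors to the pathway, at 9.32 to 10.21 against 9.95 to 10.97. NFKB1 and RELA of the canonical pathway differed by -0.17 and -0.21. The mean of the list was 8.36 to 8.67 in the T-cell-rich and 8.64 to 8.87 in the T-cell-poor tumours, and 6 of 7 T-cell-rich tumours lay below every T-cell-poor tumour. Of 21 genes of B-cell receptor and PI3K signalling none passed. PIK3CD, the leukocyte form of the PI3K catalytic subunit, had the largest difference of the list, at 9.68 to 10.45 against 8.06 to 9.59, without overlap (1.04 ± 0.21 SE, adjusted p = 0.104).

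Among genes of the granulocyte series sample 5 stood high. Of 14 neutrophil genes none passed and the median was 0.72, or 0.20 without sample 5. S100A8 was at 7.45, 10.60 and 14.06 against 6.81, 8.56 and 9.99, and myeloperoxidase (MPO) reached 10.79 in sample 5 and 6.16 to 7.69 in the other T-cell-rich tumours. Of 10 genes of mast cells and eosinophils none passed and the median was 0.62, or 0.36 without sample 5. KIT, the receptor for stem cell factor, was at 10.96 in sample 5 and 6.31 to 7.16 in the others, against 5.62 to 6.22 in the T-cell-poor tumours. Dendritic cell genes had a median of 0.34 with 0 of 18 called. FLT3, the receptor for a dendritic cell growth factor, was at 7.36 to 12.92 against 6.31 to 7.64, and CD80, a ligand of CD28 and CTLA4, at 9.72, 10.20 and 10.69 against 8.88, 9.23 and 10.10 (0.85 ± 0.18 SE, adjusted p = 0.124).

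Endothelial genes had a median of 0.51, with 16 of 20 above 0, 0 over 2-fold higher and 0 called. PLVAP, of fenestrated vessels, had a median of 9.12 against 8.21 (0.95 ± 0.23 SE, adjusted p = 0.178), and PECAM1 differed by 0.32. The median was 0.27 with sex in the fit and 0.07 among female dogs alone. Stroma and matrix had 0 of 23 genes called and a median of 0.29. It was 0.16 without sample 5, -0.07 with sex in the fit and -0.33 among female dogs alone. The collagen gene COL1A1 was at 12.32 to 14.21 against 11.27 to 14.15. Follicular dendritic cell genes had a median of 0.31 with 0 of 11 called. The cytokine TNFSF13B, a survival factor of B cells, was at 7.45 to 9.42 against 6.45 to 8.13 (1.22 ± 0.30 SE, adjusted p = 0.203). Fat cell genes had a median of 0.38 with 0 of 12 called. This median was 0.15 with sex in the fit, 0.06 without samples 5 and 23 and -0.01 among female dogs. ADIPOQ was at 4.34 to 9.91 against 5.08 to 8.26. Genes of red cells and platelets had a median of -0.12, or 0.02 with sex in the fit, with 0 of 8 called.

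Of 27 interferon response genes none passed, and the median of 0.27 turned to -0.25 with sex in the fit but was 0.50 without sample 5. MHC class I presentation had 0 of 15 genes called with a median of 0.14, and MHC class II presentation 0 of 15 with a median of 0.10, or 0.20 without sample 5 and 0.35 with sex in the fit. The protease CTSS, which clears the invariant chain from class II molecules, was at 12.93, 13.26 and 13.44 against 12.51, 12.69 and 12.83. Its groups did not overlap, and the difference of 0.54 ± 0.10 (SE) missed the threshold narrowly (adjusted p = 0.0561). Immediate early and stress genes had a median of 0.32 with 0 of 20 called, and FOS was at 6.66 to 11.10 against 6.85 to 9.37. The BCL2 family (0 of 12 called, median -0.05), the Notch pathway (0 of 14, median 0.05) and the mitochondrial respiratory chain (0 of 27, median 0.02) stood close to the median of all genes, the last at -0.04 with sex in the fit.

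Other differences of about the size of CTLA4's did not pass the test, and the genes named here were chosen after their values were seen. ADAMDEC1, a protease of mature dendritic cells and macrophages, was at 7.22, 9.67 and 11.08 against 4.07, 5.76 and 8.50 (3.75 ± 0.73 SE, adjusted p = 0.0794). Its highest T-cell-poor values were those of the female dogs, samples 1 and 8, and its difference was 2.22 with sex in the fit. IDO1, the interferon-induced enzyme of tryptophan breakdown, was at 8.65, 10.79 and 12.58 against 6.80, 8.40 and 9.32 (2.98 ± 0.59 SE, adjusted p = 0.0847). The acute phase protein SAA1 differed by 3.03, carbonic anhydrase CA2 by 3.11 and the protease inhibitor CSTA by 2.90, each with overlap. Among female dogs (6 against 2) the means differed by 3.75 in SAA1, 2.59 in CA2 and 1.24 in CSTA. Among male dogs (1 against 5) the difference was -0.43 in SAA1, 0.63 in CA2 and 4.29 in CSTA. On the lower side LRP1B, a large lipoprotein receptor, was at 3.61, 4.16 and 7.90 against 3.76, 8.66 and 10.60 (-3.20 ± 1.07 SE, adjusted p = 0.344), close to background in 6 of the 7 T-cell-rich tumours. CILP, a matrix protein of cartilage, was at 4.64 to 10.24 against 9.58 to 11.03, and 6 of 7 T-cell-rich tumours lay below every T-cell-poor tumour (-2.61 ± 0.62 SE, adjusted p = 0.178).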

How the data were processed

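Per the labels and the study's methods, RNA was extracted in balanced random batches (the batch of each sample is not given), amplified, labelled and hybridised to the Affymetrix Canine Genome 2.0 array, and the authors deposited RMA log2 expression values, 1 per probeset and array (Affymetrix Expression Console, version not given in the sources used here). RMA gives the arrays one distribution and compresses differences of dim probesets. Values ranged from 2.2 to 15.49 and array medians from 6.85 to 6.97. The values were used as given, and the number of arrays limits the precision.

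The 7 highest and 7 lowest tumours by index were compared with limma 3.58.1 (lmFit, eBayes) in R 4.3.3 over 43035 probesets, with Benjamini-Hochberg adjustment. Of these, 29264 had 1 gene symbol in the platform annotation, 439 several and 13332 none here. The probeset of highest mean stood for a gene. The 34 lists held 758 genes, of which 620 were measured. Named genes were the 10 largest rises and falls without overlap, up to 4 members of each list of smallest adjusted p and defining markers, with exceptions named. HBB of those markers was not measured, and 1 is not reported here. The groups, lists and rules were chosen with earlier results of these data known. Labels and RIN were compared by exact permutation and Fisher's exact tests (Python 3.11.15, scipy 1.17.1). Scripts were tested on simulated data. Alternatives were other group sizes, rankings, covariates, an array day block, a filter at the 25th percentile, normalizations, tests and subsets of tumours.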

Additional observations from a re-analysis of the deposited data

Results flagged for a closer look

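In 156 sets of 7 tumours, the gap between the most extreme tumour and its neighbour was set against the whole range of the group. The sets were, in each group, the list means and the levels of the called genes, the defining and other T-cell markers, and the genes chosen after their values were seen. In 19 sets this ratio passed 0.568, Dixon's limit for 7 samples, and chance flags about 1 in 20 groups. That rate does not hold for genes chosen after their values were seen, among them CXCL8 and LRP1B below. The causes were not tested.

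Sample 5 was the outlying T-cell-rich tumour in 11 of the 19. It was lowest in MS4A1 (ratio 0.933), where it stood at 8.51 against 12.88 to 13.19 in the other 6, and in CD79A (0.866), the mean of the B-cell list (0.749), MHC class II presentation (0.820), MYC and nucleolar ribosome biogenesis (0.626), NF-kB subunits and feedback (0.661) and B-cell receptor and PI3K signalling (0.649). It was highest in CD14 (0.576), MPO (0.671), CXCL8 (0.609) and the mean of mast cell and eosinophil genes (0.6).

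Among the other T-cell-rich tumours, sample 19 was highest in LRP1B (0.852), at 7.90 against 3.61 to 4.25, and sample 21 in the mean of germinal centre genes (0.785). Of the T-cell-poor tumours, sample 20 was lowest in CD3G (0.804), at 6.25 against 11.32 to 12.55, and in the mean of MYC and ribosome biogenesis genes (0.635), and highest in MHC class I presentation (0.674) and NF-kB subunits and feedback (0.648). Sample 1 was highest in PECAM1 (0.640) and sample 16 in the mean of the BCL2 family (0.594).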

How the results depend on the processing

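The count of probesets higher and lower in the T-cell-rich tumours, 50 and 2, depended on the choices made. It was 35 and 0 for 5 against 5 tumours, 32 and 0 for 9 against 9, 1 and 0 for the ranking by other T-cell markers, 115 and 4 for the index as a continuous term over 22 dogs, 32 and 0 with RIN, 29 and 1 with the array day as a block and 24 and 1 for the same 11 arrays without it. The methods' ANOVA gave 24 and 3, a filter on dim probesets 55 and 4 and centring on array medians 46 and 5. With sex in the fit it was 2 and 0, among female dogs 0 and 1, and without samples 5 and 23 it was 27 and 0, these 3 and the 24 and 1 being chosen after the data had been seen. The other alternatives gave 35 to 54 and 2 to 3. Leaving out each tumour gave 30 (without sample 23) to 67 (without sample 5) higher and 0 (without sample 15, 16, 23 or 24) to 5 (without sample 20) lower. Without sample 6 there were 33 higher. In each alternative the 50 and 2 probesets kept their sign, which the shared tumours help to fix. The causes were not tested. The RIN difference of -0.13 turned to 0.0222 for 9 against 9 tumours. The mean of a gene's probesets moved no list's median beyond its spread. No paired analysis was possible because no dog gave a tumour to both groups compared.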
